A study of Mus musculus with 48 samples.

Results

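Etoposide traps topoisomerase II on DNA. The 9 genes described here encode the drug's targets Top2a and Top2b, and Top1, a topoisomerase that it does not bind. The others encode the enzymes that clear trapped topoisomerase from DNA ends, and membrane pumps that can carry the drug out of the cell. The 9 genes were chosen by name from the deposited count table: the topoisomerases Top2a, Top2b and Top1, the tyrosyl-DNA phosphodiesterases Tdp1 and Tdp2, and the ATP-driven efflux pumps Abcb1a, Abcb1b, Abcc1 and Abcg2. All 9 were found among 25528 genes. Each was measured in 48 RNA-seq libraries, 3 in each of 16 groups.

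Type II topoisomerases cut both strands of a DNA duplex, pass another duplex through the gap and reseal it, and they stay covalently bound to the cut ends through a tyrosine while they do so. Etoposide blocks the resealing step, which leaves the enzyme attached to a broken end. Tdp2 cleaves the bond between that tyrosine and the 5′ end of the DNA, and Tdp1 acts mainly on the 3′ bond that Top1 forms. Top2a is made mostly in dividing cells and peaks late in the cell cycle, whereas Top2b is present in dividing and resting cells alike. Etoposide is a substrate of P-glycoprotein, which humans make from a single gene and mice from the neighbouring genes Abcb1a and Abcb1b, and it is also carried by the pumps that Abcc1 and Abcg2 encode.

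The cells were a mouse Hoxb8 line, in which the Hoxb8 transcription factor holds blood progenitors in an immature, dividing state, carrying Cas9 and labelled as granulocyte-monocyte progenitors (GMP). The 4 genotypes were wildtype, E6l2-KO (Ercc6l2 edited), Trp53-KO and E6l2-Trp53-KO (both edited). Untransformed cells of each genotype were kept for 48 h in DMSO, in etoposide, or at high cell density, in which 4 M rather than 0.25 M cells were seeded per well. The other 4 groups were clones labelled Etoposide transformed, numbered 4 and 6 (Trp53-KO) and 7 and 12 (E6l2-Trp53-KO). Their RNA was taken without further drug treatment, so the untransformed DMSO cells of the same genotype served as their comparison. What concentration of etoposide was used is not stated in the labels. The labels name neither separately edited lines nor separate cultures, and the 3 libraries of a clone share that clone, so p-values measure only the spread between these libraries, which may be technical.

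The median library held 27.4 M counts and the range was 22.5 to 114 M. E6l2-Trp53-KO Etoposide replicate 3 (40.9 M counts), clone 4 replicate 3 (68.4 M) and clone 12 replicate 3 (114 M) were the deepest libraries of the set. Among Trp53-edited untransformed libraries Trp53 ran from 15.9 to 37.6 counts per M counts (CPM), below the 69.5 to 102 CPM of the unedited libraries. Ercc6l2 ran from 24.5 to 30.2 CPM in the edited and from 25.6 to 30.4 CPM in the unedited untransformed libraries, so its level did not check that label. The untransformed cells made the GMP markers, with Mpo at 1798 to 2791 CPM and Cebpa at 179 to 261 CPM over the group means. The 4 clones went against the GMP label in most but not all GMP markers, with Mpo at 0.992 to 68.0 CPM and Cebpa at 0.214 to 8.67 CPM. Prtn3, Cebpe and Ms4a3 were also lower, and Elane overlapped. Ctsg stayed high, at 1595 to 2075 CPM in the clones against 2048 to 4414 CPM. Kit was higher, at 2404 to 2696 CPM against 303 to 447 CPM. The 7 mast cell markers summed to 64429 to 83122 CPM in the clones against 1478 to 2737 CPM in the untransformed groups, with Tpsb2 at 27722 to 36110 CPM against at most 0.0271 CPM. Cpa3 and Tpsb2 made up most of the clones' sum. Mcpt8 went the other way, at 12.6 to 22.8 CPM in the clones against 95.6 to 147 CPM. Hdc overlapped, at 403 to 1506 CPM against 218 to 526 CPM.

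Abcb1a (chr5:8660077-8748575) and Abcb1b (chr5:8798147-8866315) lie next to each other on the plus strand of mouse chromosome 5 (GRCm38, GENCODE M21) and resemble each other closely. Their coding sequences are 3831 bases each and were identical at 3363 of 3822 aligned bases (88.0%), with a longest shared run of 338 bases. Of all 100-base windows, 7.49% of those in the Abcb1a transcript also occur in Abcb1b, and 8.72% the other way round. Reads from such windows could have been assigned to either gene, so the split between the pair is uncertain and their sum is given as well. The 90 coding bases in which they differed most are printed to show what separates their reads. Its 29 differing bases are in capitals, at coding positions 1883 to 1972 of Abcb1a and 1892 to 1981 of Abcb1b.
Abcb1a: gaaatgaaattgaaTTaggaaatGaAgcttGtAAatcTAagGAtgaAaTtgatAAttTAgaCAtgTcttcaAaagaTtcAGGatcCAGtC
Abcb1b: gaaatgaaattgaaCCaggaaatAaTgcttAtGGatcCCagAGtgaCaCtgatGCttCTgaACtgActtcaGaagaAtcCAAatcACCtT

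The start regions of both pump genes, and of Top2a and Top1, which moved in opposite directions in the clones, are shown from 250 bases before to 50 bases after the RefSeq transcript start (GRCm38.p6). The set of RefSeq windows used here covered 7 of the 9 genes. Capitals mark matches to the CCAAT box, spelled CCAAT, which reads ATTGG when it lies on the opposite strand. They also mark the GC box, spelled GGGCGG, which reads CCGCCC when it lies on the opposite strand. No match overlapped another in these windows. The TATA box, spelled TATAAA, and the AP-1 site, spelled TGANTCA with N for any base, were searched on both strands and were in none of the 4 windows.
Abcb1a, chr5:8566841-8567140, plus strand: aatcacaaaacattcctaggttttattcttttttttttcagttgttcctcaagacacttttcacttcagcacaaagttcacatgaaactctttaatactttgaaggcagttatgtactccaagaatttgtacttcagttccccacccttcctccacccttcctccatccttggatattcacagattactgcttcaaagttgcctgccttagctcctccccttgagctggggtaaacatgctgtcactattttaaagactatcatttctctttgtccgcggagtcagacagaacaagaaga
Abcb1b, chr5:8797897-8798196, plus strand: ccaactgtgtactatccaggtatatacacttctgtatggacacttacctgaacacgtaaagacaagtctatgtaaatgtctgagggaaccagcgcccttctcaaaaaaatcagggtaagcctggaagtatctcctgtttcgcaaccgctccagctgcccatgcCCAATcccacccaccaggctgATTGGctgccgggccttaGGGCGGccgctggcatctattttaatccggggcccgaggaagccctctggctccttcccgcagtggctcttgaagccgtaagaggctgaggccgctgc
Top2a, chr11:99024140-99024439, minus strand: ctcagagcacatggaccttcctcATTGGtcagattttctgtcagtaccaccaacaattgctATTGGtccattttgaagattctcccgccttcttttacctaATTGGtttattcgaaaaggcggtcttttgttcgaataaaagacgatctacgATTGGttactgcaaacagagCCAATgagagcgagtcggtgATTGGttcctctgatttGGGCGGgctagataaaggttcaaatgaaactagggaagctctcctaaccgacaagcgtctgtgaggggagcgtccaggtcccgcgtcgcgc
Top1, chr2:160645647-160645946, plus strand: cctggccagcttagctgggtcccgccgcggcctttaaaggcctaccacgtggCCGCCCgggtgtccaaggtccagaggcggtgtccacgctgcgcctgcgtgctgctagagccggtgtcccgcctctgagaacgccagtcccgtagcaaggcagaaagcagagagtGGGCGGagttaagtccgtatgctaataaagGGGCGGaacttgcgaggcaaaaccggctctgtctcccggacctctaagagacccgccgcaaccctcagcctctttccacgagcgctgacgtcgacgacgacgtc

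The Top2a window held 6 CCAAT matches and 1 GC box. Of 32851 RefSeq windows, 37.4% held at least 1 CCAAT match and 0.08% held 6 or more. The Top1 window held 3 GC boxes and no CCAAT match, and 10.71% of windows held 3 or more GC boxes. The neighbouring pump genes differed: Abcb1b held 2 CCAAT matches and 1 GC box, and Abcb1a held no match to any of the 4 motifs. RefSeq's Abcb1a window (chr5:8566841-8567140) lies far upstream of the gene start in GENCODE M21 (8660077), so the annotations differ in the first exon. The Abcb1b window (chr5:8797897-8798196) spans the GENCODE start of its gene (8798147). Sequence around the GENCODE start of Abcb1a was not searched, so the difference between the pair holds for the RefSeq windows only.

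Per kilobase of transcript, Top2a was the most abundant of the 9 in every untransformed group, at 107 to 123 CPM per kb. Top2b, at 25.5 to 32.5 CPM per kb, and Top1, at 25.8 to 33.9 CPM per kb, were about level with each other. Tdp2 (22.1 to 27.1 CPM per kb) exceeded Tdp1 (11.8 to 16.1 CPM per kb) in all 12 untransformed groups. Abcc1, a pump for glutathione conjugates and many drugs, was the most abundant pump at 16.1 to 20.9 CPM per kb. Abcb1b followed at 5.78 to 8.38 CPM per kb, and Abcb1a at 0.955 to 2.47 CPM per kb. Abcg2, the pump of the stem cell side population, was near the limit of detection, with 0 to 19 counts per library.

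**Figure D1:**
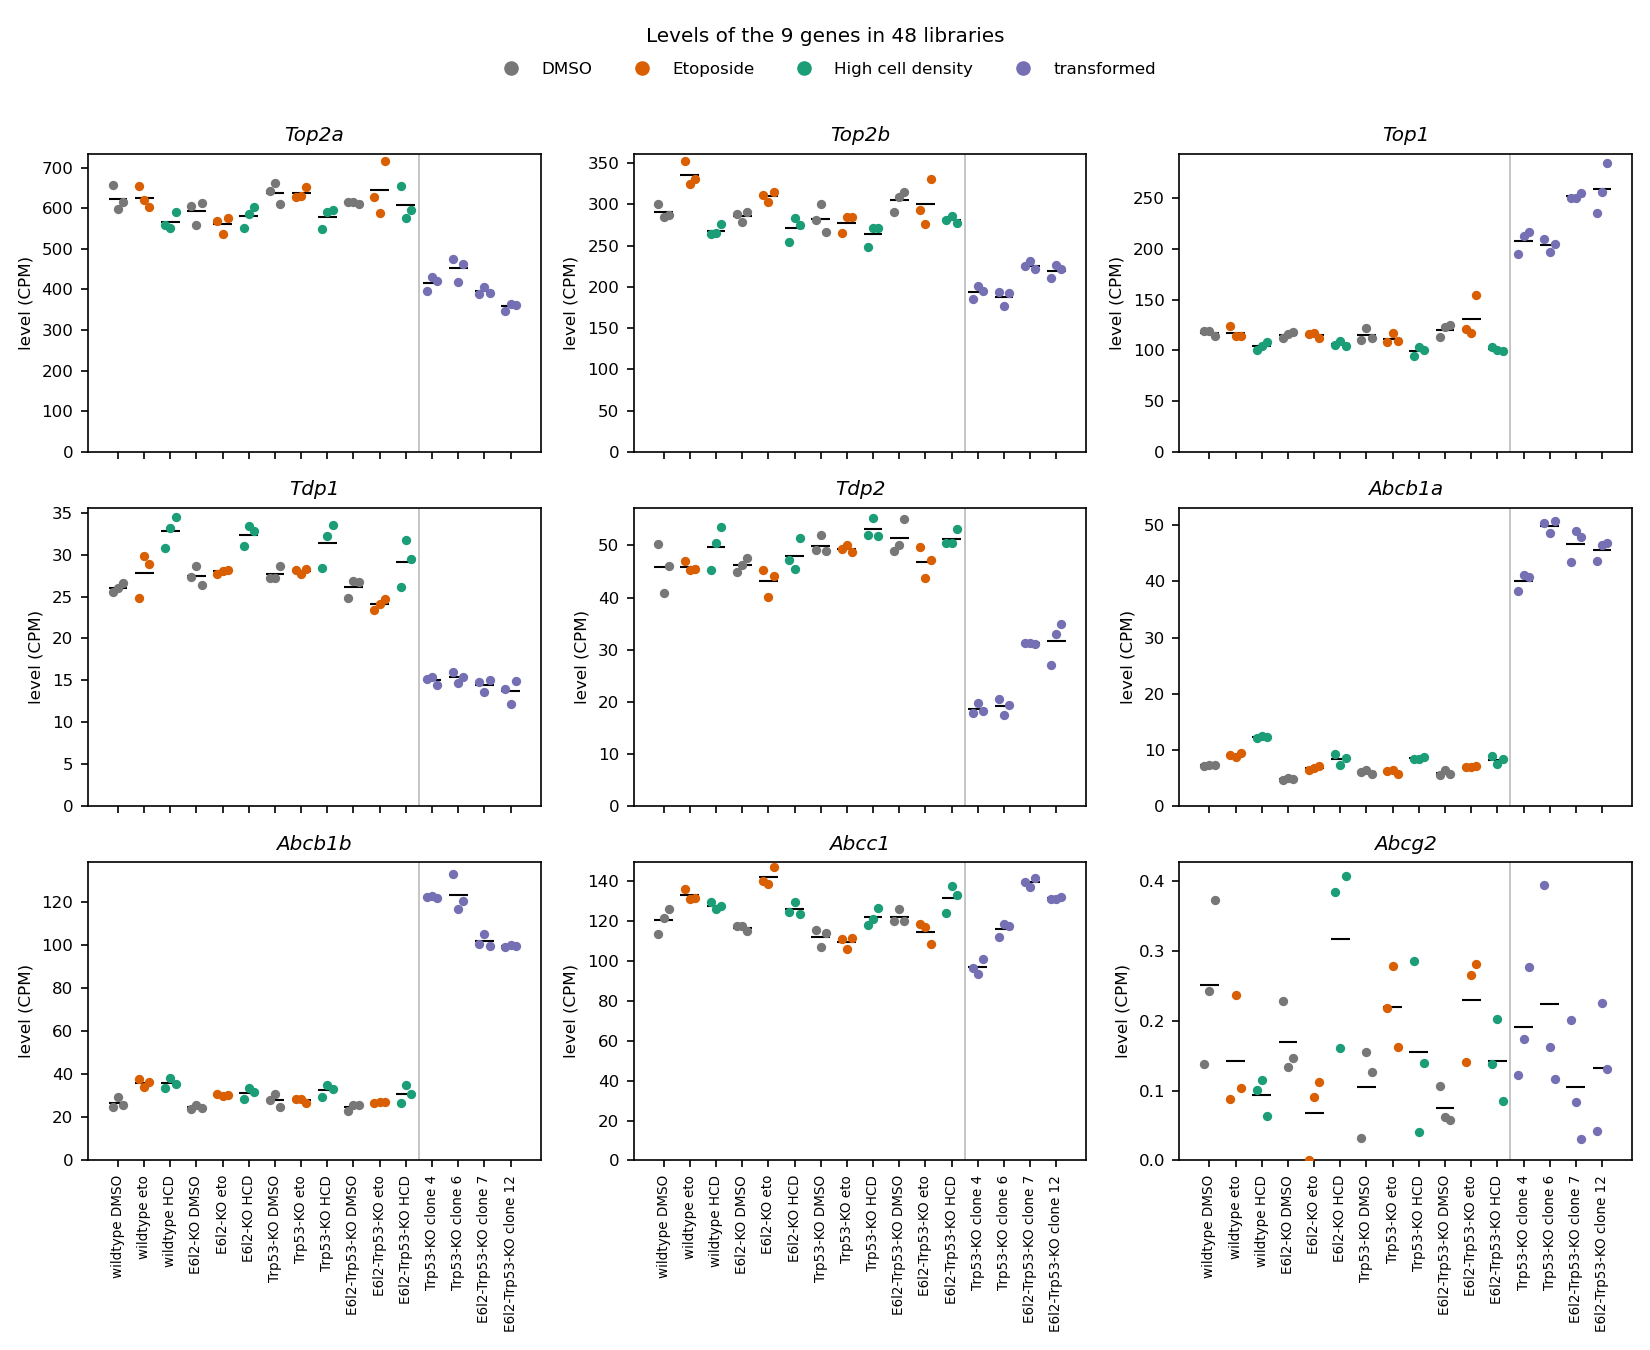
Level of each of the 9 genes in CPM (vertical axes, from 0) in every library of the 16 groups (horizontal axis); points are libraries and black lines are means of 3. Abcb1a and Abcb1b stand several-fold higher in the 4 transformed clones than in any untransformed group, Top1 is higher there, and Top2a, Top2b, Tdp1 and Tdp2 are lower.

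Abcb1a had the widest span of the 8 well-measured genes among untransformed groups, 2.59-fold between its lowest and highest mean. Its levels, as mean CPM ± SD of 3 libraries, were lowest in E6l2-KO DMSO (4.77 ± 0.16), followed by E6l2-Trp53-KO DMSO (5.86 ± 0.45), Trp53-KO DMSO (5.99 ± 0.36) and Trp53-KO Etoposide (6.13 ± 0.34). E6l2-KO Etoposide (6.81 ± 0.36), E6l2-Trp53-KO Etoposide (7.05 ± 0.16) and wildtype DMSO (7.28 ± 0.10) came next. High density cells of E6l2-Trp53-KO (8.23 ± 0.77), E6l2-KO (8.39 ± 0.97) and Trp53-KO (8.48 ± 0.17) stood together below wildtype Etoposide (9.08 ± 0.42) and wildtype high density (12.4 ± 0.19). The clones held the top of the order, with clone 4 at 40.04 ± 1.55, clone 12 at 45.6 ± 1.8, clone 7 at 46.7 ± 2.9 and clone 6 at 49.9 ± 1.1. Neighbours in this order differed by less than the sum of their SDs, with 6 exceptions. These were the steps up from E6l2-KO DMSO, from wildtype DMSO, from Trp53-KO high density, from wildtype Etoposide, from wildtype high density and from clone 4.

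The other genes spanned less: Tdp1 1.36-fold, Top1 1.31-fold, Abcc1 1.30-fold, Abcb1b 1.45-fold, Top2b 1.27-fold, Tdp2 1.23-fold and Top2a 1.15-fold over the untransformed means. Top2a was lowest in E6l2-KO Etoposide (560.2 ± 20.3 CPM) and highest in E6l2-Trp53-KO Etoposide (644 ± 65.1 CPM). Top2b was lowest in Trp53-KO high density (264 ± 13.8 CPM) and highest in wildtype Etoposide (336 ± 15.1 CPM). Abcb1b ranged from 24.9 ± 1.6 CPM in E6l2-Trp53-KO DMSO to 36.1 ± 1.8 CPM in wildtype Etoposide.

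Whether etoposide altered the genes for its own targets, their repair and its export was asked within each genotype. Wildtype and E6l2-KO cells in etoposide had more of both P-glycoprotein genes, by 1.19- to 1.40-fold, while none of the 9 genes passed the test in Trp53-KO cells. Top2b was higher in wildtype, Abcc1 in E6l2-KO and Abcb1a in E6l2-Trp53-KO cells. Top2a, Top1, Tdp1 and Tdp2 passed the test in no genotype, although a correction for transcript length and GC content brought calls for Top2a, Top1 and Tdp2. Over the 4 genotypes the calls were 7 higher and 0 lower, and 12 higher and 2 lower with that correction. In wildtype the correction also moved the median over all genes to log2 0.11. The test was edgeR's quasi-likelihood F test over all 36 untransformed libraries, with Benjamini-Hochberg adjusted p-values under 0.05 over 14059 genes. Levels are scaled over all 48 libraries and fold changes come from the fit's own scaling, so small differences between the pair remain. Sums over cell type markers were also compared: the 8 GMP markers summed to 6153 CPM (range 5837 to 6431) in wildtype DMSO and 7742 CPM (7506 to 7868) in wildtype Etoposide, and the 7 mast cell markers to 1851 CPM (1832 to 1879) and 2466 CPM (2438 to 2495). In E6l2-KO the GMP sums were 6371 and 7939 CPM and the mast cell sums 2267 and 2560.0 CPM, whereas in Trp53-KO they were 6798 and 6719 CPM, and 1740.3 and 1845 CPM. In E6l2-Trp53-KO the GMP sums were 5271 and 4934 CPM and the mast cell sums 2233 and 2737 CPM. Tpsb2 and Fcer1a, both among the 7 mast cell markers, stayed at or near 0 in all untransformed groups, and the markers' part in the results was not tested.

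Top2b, the isoform present throughout the cell cycle, was at 299.9, 284 and 287 CPM in wildtype DMSO and at 353, 324 and 330.2 CPM in wildtype Etoposide. All 3 treated libraries lay above all 3 controls. The log2 fold change was 0.14 ± 0.05 (SE; adjusted p = 0.0351, edgeR), and 0.58 when counts were also corrected for transcript length and GC content. The call was lost without wildtype Etoposide replicate 1 (log2 0.11, adjusted p = 0.151, edgeR) and without replicate 3 (log2 0.15, adjusted p = 0.0531, edgeR). Top2a was at 658, 599 and 614 CPM in wildtype DMSO and at 654, 619.9 and 602 CPM in wildtype Etoposide, with overlapping groups (log2 -0.06, not called). With the length and GC correction Top2a was called higher in wildtype (log2 0.25, adjusted p = 0.000734, edgeR), as were Top1 (0.28, adjusted p = 0.000204) and Tdp2 (0.17, adjusted p = 0.0374).

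Abcb1b was at 25.1, 29.5 and 25.8 CPM in wildtype DMSO and at 37.7, 34.1 and 36.5 CPM in wildtype Etoposide. The groups did not overlap, and Abcb1b rose by 0.36 ± 0.08 in log2 units (adjusted p = 0.000634, edgeR). In E6l2-KO cells it went from 24.1, 25.99 and 24.5 CPM to 30.99, 30.0 and 30.3 CPM, a log2 change of 0.26 ± 0.08 (adjusted p = 0.0154, edgeR). Without E6l2-KO DMSO replicate 1 that call was lost (log2 0.23, adjusted p = 0.0567, edgeR). Trp53-KO cells had 27.9, 31.1 and 24.7 CPM in DMSO and 28.5, 28.5 and 26.6 CPM in etoposide, and all treated values lay within the range of the controls. The response of Abcb1b in Trp53-KO was lower than in wildtype by a tested log2 difference of -0.36 ± 0.12 (adjusted p = 0.024, edgeR). It was lost without wildtype Etoposide replicate 1 (log2 -0.34, adjusted p = 0.0524, edgeR) or Trp53-KO Etoposide replicate 3 (log2 -0.33, adjusted p = 0.0586, edgeR).

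Abcb1a, which encodes the other drug-transporting P-glycoprotein, rose in 3 genotypes. Wildtype cells went from 7.19, 7.26 and 7.39 CPM to 9.06, 8.67 and 9.51 CPM, a log2 change of 0.25 ± 0.08 (adjusted p = 0.0103, edgeR), or 0.49 with the length and GC correction. E6l2-KO cells went from 4.61, 4.94 and 4.76 CPM to 6.49, 6.73 and 7.20 CPM, a log2 change of 0.48 ± 0.09 (adjusted p = 6.63e-05, edgeR). In both genotypes every treated library exceeded every control. E6l2-Trp53-KO cells went from 5.51, 6.36 and 5.70 CPM to 6.99, 6.93 and 7.23 CPM, again without overlap, for a log2 change of 0.30 ± 0.08 (adjusted p = 0.0143, edgeR).

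Single libraries carried some of these Abcb1a calls. The wildtype call was lost without wildtype Etoposide replicate 3 (log2 0.22, adjusted p = 0.0594, edgeR). The E6l2-Trp53-KO call was lost without its DMSO replicate 1 (log2 0.26, adjusted p = 0.0584, edgeR), its DMSO replicate 3 (log2 0.25, adjusted p = 0.0778, edgeR) or its deep Etoposide replicate 3 (log2 0.25, adjusted p = 0.116, edgeR). It was also lost with the length and GC correction (log2 0.20, adjusted p = 0.0728, edgeR), with no filter on low counts (adjusted p = 0.0762, edgeR) and with only the groups compared in the fit (adjusted p = 0.176, edgeR), and in 7 of 14 alternatives in all. Trp53-KO cells had 5.99, 6.35 and 5.64 CPM in DMSO and 6.25, 6.39 and 5.75 CPM in etoposide, and these overlapped. Abcb1a and Abcb1b together were at 34.1 CPM in DMSO and 45.1 CPM in etoposide in wildtype, and at 29.7 and 37.3 CPM in E6l2-KO. In Trp53-KO these sums were 33.9 and 34.0 CPM, and in E6l2-Trp53-KO 30.7 and 34.0 CPM. The sums were not tested.

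Abcc1 was at 117, 117 and 115 CPM in E6l2-KO DMSO and at 140.4, 139 and 147 CPM in E6l2-KO Etoposide. It rose by 0.25 ± 0.05 in log2 units (adjusted p = 9.12e-05, edgeR) with no overlap. In E6l2-Trp53-KO cells it was at 120.2, 126 and 120.1 CPM in DMSO and at 118, 117 and 109 CPM in etoposide, with a log2 change of -0.06 (adjusted p = 0.38, edgeR). The responses of these 2 genotypes differed by -0.31 ± 0.07 on the log2 scale (adjusted p = 0.000544, edgeR). In wildtype cells Abcc1 was at 114, 122 and 126 CPM in DMSO and at 136, 131 and 132 CPM in etoposide, which did not pass the test (log2 0.08, adjusted p = 0.19, edgeR).

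By count, 3 of 9 genes were called in wildtype cells, where 41.5% of all genes tested were called. E6l2-KO also had 3 of 9, against 35.0% of all genes, and E6l2-Trp53-KO had 1 of 9, against 13.2%. Trp53-KO cells had 0 of 9 by edgeR, with 0 at an unadjusted p under 0.05 and 0 by DESeq2, where 0% of all genes were called. The share among these genes was close to or below that of the table as a whole. The log2 values of Cdkn1a, a direct p53 target, were 2.16 in wildtype, 2.04 in E6l2-KO, -0.06 in Trp53-KO and -0.09 in E6l2-Trp53-KO. Interactions called 1 of 9 genes between Trp53-KO and wildtype (23.2% of all genes) and 3 of 9 between E6l2-Trp53-KO and E6l2-KO (34.7%), in all 2 higher and 2 lower, or 1 higher and 11 lower over all 4 tests with the length and GC correction. In those 2 interactions the correction moved the median over all genes to log2 -0.14 and -0.13. Between E6l2-KO and wildtype the interactions called 0 of 9 by edgeR and by DESeq2, with 1 at an unadjusted p under 0.05, where 0.0142% of all genes were called. Between E6l2-Trp53-KO and Trp53-KO they called 0 of 9 by both tools, with 2 at an unadjusted p under 0.05, where 0.206% of all genes were called.

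Counts for the other genes of these pathways are to be read against the shares of all genes called, which were 41.5% in wildtype, 35.0% in E6l2-KO and 13.2% in E6l2-Trp53-KO. Of 6 tested among the other topoisomerase genes, 1 fell in wildtype, 3 in E6l2-KO and 1 in E6l2-Trp53-KO, and 0 rose. Rmi2, a subunit of the Top3a complex that dissolves DNA junctions, fell by 0.22 on the log2 scale in wildtype (adjusted p = 0.0215, edgeR). Of 18 adduct and end processing genes, 4 rose and 2 fell in wildtype, 1 rose and 1 fell in E6l2-KO, and 1 fell in E6l2-Trp53-KO. In wildtype Zfp451, the SUMO ligase that helps Tdp2 act on trapped topoisomerase II, fell by 0.38 (adjusted p = 2.72e-07, edgeR). With the length and GC correction the wildtype counts became 2 higher and 0 lower for topoisomerase genes, and 8 higher and 0 lower for end processing genes. That correction also moved the median over all genes in wildtype to log2 0.11, and the share of all genes called with it is not given here. Of 10 other ABC exporters, 1 rose and 1 fell in wildtype, 2 rose and 2 fell in E6l2-KO, and 1 rose in E6l2-Trp53-KO.

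**Figure D2:**
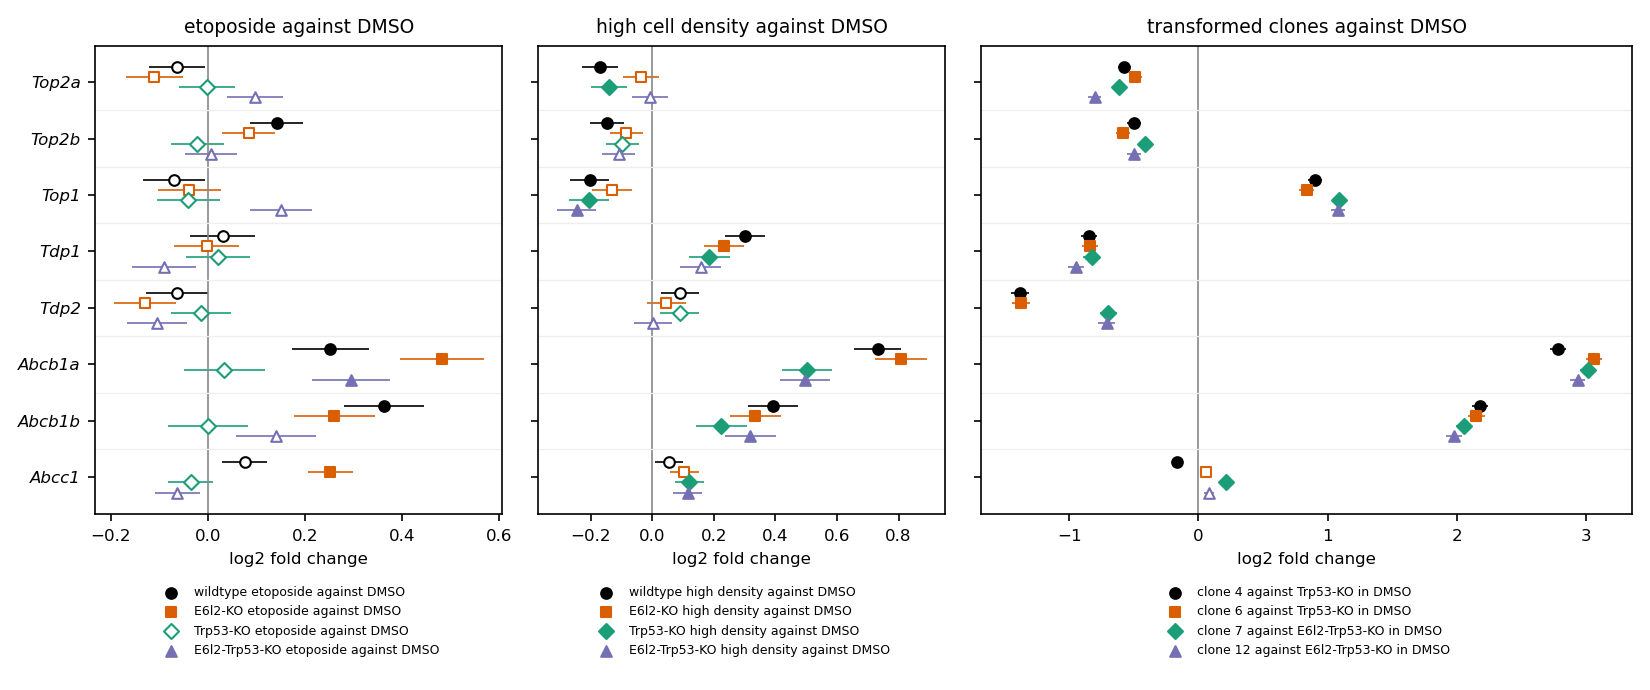
Log2 fold change ± SE (horizontal axes, which differ in scale) of 8 genes (rows) in etoposide against DMSO, high density against DMSO, and each transformed clone against DMSO cells of its genotype; filled points have an adjusted p under 0.05 (edgeR) and open points do not. Abcb1a and Abcb1b lie above 0 at high density in all 4 genotypes and near 2 to 3 in the clones, where Tdp1, Tdp2, Top2a and Top2b lie below 0.

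High cell density served as a stress without a drug. Abcb1a and Abcb1b rose in all 4 genotypes, Abcb1a by 1.41- to 1.75-fold and Abcb1b by 1.17- to 1.31-fold. Tdp1, the 3′ phosphodiesterase, rose in wildtype, E6l2-KO and Trp53-KO cells by 1.14- to 1.23-fold. Top1 fell in wildtype, Trp53-KO and E6l2-Trp53-KO cells by 1.15- to 1.19-fold, but with the length and GC correction its wildtype value turned to log2 0.02. Tdp2 passed the test in no genotype.

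Abcb1a was at 7.19, 7.26 and 7.39 CPM in wildtype DMSO and at 12.2, 12.6 and 12.3 CPM at high density, a log2 change of 0.73 ± 0.08 (adjusted p = 1.4e-09, edgeR). E6l2-KO cells reached 9.26, 7.35 and 8.57 CPM from 4.61, 4.94 and 4.76 CPM (log2 0.81 ± 0.08, adjusted p = 1.7e-09, edgeR). Trp53-KO cells reached 8.42, 8.36 and 8.67 CPM from 5.99, 6.35 and 5.64 CPM (log2 0.50 ± 0.08, adjusted p = 5.69e-06, edgeR). High density and control libraries were separate in each of these genotypes. E6l2-Trp53-KO cells reached 8.94, 7.41 and 8.33 CPM from 5.51, 6.36 and 5.70 CPM (log2 0.50 ± 0.08, adjusted p = 5.25e-06, edgeR), also without overlap. These 4 calls held in every alternative tried.

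Abcb1b reached 33.5, 38.4 and 35.7 CPM in wildtype cells at high density (log2 0.39 ± 0.08, adjusted p = 0.000193, edgeR), above all 3 of its DMSO libraries. E6l2-KO cells reached 28.7, 33.7 and 32.1 CPM (log2 0.34 ± 0.08, adjusted p = 0.00159, edgeR). E6l2-Trp53-KO cells reached 26.8, 35.05 and 31.04 CPM (log2 0.32 ± 0.08, adjusted p = 0.00196, edgeR). All of these lay above their own controls. In Trp53-KO cells the 29.6, 35.03 and 33.1 CPM overlapped the 27.9, 31.1 and 24.7 CPM of DMSO (log2 0.22 ± 0.08, adjusted p = 0.0272, edgeR). That call was lost without Trp53-KO DMSO replicate 1 (log2 0.22, adjusted p = 0.0678, edgeR) or replicate 3 (0.15, adjusted p = 0.184, edgeR), or without high density replicate 2 (0.17, adjusted p = 0.135, edgeR) or replicate 3 (0.21, adjusted p = 0.0746, edgeR).

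Tdp1 was at 25.5, 26.1 and 26.6 CPM in wildtype DMSO and at 30.7, 33.2 and 34.5 CPM at high density (log2 0.30 ± 0.07, adjusted p = 0.000322, edgeR). E6l2-KO cells went from 27.3, 28.7 and 26.4 CPM to 31.03, 33.4 and 32.8 CPM (log2 0.23 ± 0.07, adjusted p = 0.0049, edgeR). Neither genotype's groups overlapped. Trp53-KO cells went from 27.2, 27.2 and 28.6 CPM to 28.5, 32.3 and 33.5 CPM, which overlapped (log2 0.19 ± 0.07, adjusted p = 0.0226, edgeR). The Trp53-KO call was lost without DMSO replicate 1 (log2 0.17, adjusted p = 0.0789, edgeR), high density replicate 2 (0.17, adjusted p = 0.0738, edgeR) or replicate 3 (0.13, adjusted p = 0.148, edgeR). E6l2-Trp53-KO cells, at 26.2, 31.7 and 29.5 CPM against 24.8, 26.9 and 26.8 CPM, did not pass (log2 0.16, adjusted p = 0.053, edgeR).

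Among the topoisomerases, Top1 was at 119, 119 and 114 CPM in wildtype DMSO and at 100.2, 105 and 108 CPM at high density (log2 -0.20 ± 0.06, adjusted p = 0.00948, edgeR). Trp53-KO cells had 111, 122 and 112 CPM in DMSO and 94.8, 103 and 101 CPM at high density (log2 -0.20 ± 0.06, adjusted p = 0.01, edgeR). E6l2-Trp53-KO cells had 113, 123 and 125 CPM in DMSO and 104, 99.99 and 99.8 CPM at high density (log2 -0.25 ± 0.06, adjusted p = 0.00198, edgeR). High density libraries lay below the controls in all 3 genotypes. The wildtype call was lost without DMSO replicate 1 (log2 -0.17, adjusted p = 0.071, edgeR), DMSO replicate 2 (-0.17, adjusted p = 0.0763, edgeR) or high density replicate 1 (-0.17, adjusted p = 0.0576, edgeR). The Trp53-KO call was lost without DMSO replicate 2 (-0.15, adjusted p = 0.0997, edgeR) or high density replicate 1 (-0.17, adjusted p = 0.0642, edgeR).

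The type II enzymes passed the test in fewer genotypes. Top2a fell in wildtype from 658, 599 and 614 CPM to 559, 549.9 and 590.3 CPM (log2 -0.17 ± 0.06, adjusted p = 0.0163, edgeR), a value of 0.01 with the length and GC correction. Top2b fell in wildtype from 299.9, 284 and 287 CPM to 263, 265 and 276 CPM (log2 -0.15 ± 0.05, adjusted p = 0.0267, edgeR), a value of 0.06 with that correction. Neither set of groups overlapped. The wildtype Top2a call was lost without DMSO replicate 1 (log2 -0.10, adjusted p = 0.212, edgeR) or 3 (-0.16, adjusted p = 0.0542, edgeR), or high density replicate 1 (-0.15, adjusted p = 0.0597, edgeR) or 2 (-0.15, adjusted p = 0.0709, edgeR). The Top2b call was lost without any of the 3 DMSO libraries or high density replicates 1 and 2, at log2 values of -0.10 to -0.14 and adjusted p from 0.0772 to 0.217 (edgeR). Top2a also fell in Trp53-KO cells, from 642, 663 and 610.2 CPM to 549, 590.2 and 596 CPM (log2 -0.14 ± 0.06, adjusted p = 0.0491, edgeR). That call was lost without DMSO replicate 1 or 2 or high density replicate 1 or 2, at log2 values of -0.10 to -0.15 and adjusted p from 0.068 to 0.232 (edgeR).

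Abcc1 rose slightly at high density in Trp53-KO (log2 0.12 ± 0.05, adjusted p = 0.0326, edgeR) and E6l2-Trp53-KO cells (log2 0.11 ± 0.05, adjusted p = 0.0402, edgeR). Trp53-KO cells had 116, 107 and 114 CPM in DMSO and 118, 121 and 126 CPM at high density, without overlap. E6l2-Trp53-KO cells had 120.2, 126 and 120.1 CPM in DMSO and 124, 138 and 133 CPM at high density, and these overlapped. Both values were 0.03 with the length and GC correction. The calls were lost without Trp53-KO DMSO replicate 2 or high density replicate 2 or 3 (adjusted p from 0.0524 to 0.157, edgeR), and without E6l2-Trp53-KO DMSO replicate 1 or 3 or high density replicate 2 or 3 (adjusted p from 0.092 to 0.217, edgeR). Abcg2 was at 0.138, 0.242 and 0.373 CPM in wildtype DMSO and at 0.101, 0.116 and 0.0643 CPM at high density (log2 -1.45 ± 0.58, adjusted p = 0.0395, edgeR). That difference rests on single-digit to low double-digit counts and was lost in 9 of 13 alternatives, including those without DMSO replicate 2 (adjusted p = 0.0732, edgeR), DMSO replicate 3 (0.229) or high density replicate 1 (0.0756), 2 (0.0571) or 3 (0.131). The filter on low counts keeps a gene for its highest libraries. For Abcg2 the highest untransformed values were in E6l2-KO high density (up to 0.406 CPM) and wildtype DMSO (up to 0.373 CPM). Comparisons with wildtype DMSO are therefore not free of that selection, and with no filter the adjusted p was 0.0966 (edgeR).

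By count, 7 of 9 genes were called at high density in wildtype (48.5% of all genes), 3 of 9 in E6l2-KO (40.7%), 6 of 9 in Trp53-KO (44.7%) and 4 of 9 in E6l2-Trp53-KO (46.2%). These shares straddled those of the whole table. The density response was not found to differ between genotypes for any of the 9, with 0 called by edgeR and by DESeq2 in all 4 tests and 1, 2, 1 and 0 at an unadjusted p under 0.05. Of all genes, those tests called 0.00711% between E6l2-KO and wildtype and 0.0925% between Trp53-KO and wildtype. Between E6l2-Trp53-KO and E6l2-KO they called 1.37%, and between E6l2-Trp53-KO and Trp53-KO 0.334%. The GMP markers summed to 6781 to 8607 CPM at high density and 5271 to 6798 CPM in DMSO, and the monocyte markers to 226 to 480 CPM against 126 to 241 CPM. Their part in these changes was not tested, and in bulk RNA fewer cells of a type and less RNA per cell cannot be told apart.

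Top2a is itself a cell cycle gene, so 20 other genes of the G2 and M phases were set beside it. In etoposide 11 of 20 were called in wildtype (41.5% of all genes), 9 in E6l2-KO (35.0%), 0 in Trp53-KO (0%) and 4 in E6l2-Trp53-KO (13.2%). Of these calls 18 were higher and 6 lower, while Top2a was called in no genotype. At high density 16 of 20 fell in wildtype, 14 in E6l2-KO and 15 in Trp53-KO, with 0 rising in any of them, and in E6l2-Trp53-KO 7 fell and 5 rose. Their median log2 changes were -0.27, -0.19, -0.29 and -0.10, against -0.17, -0.04, -0.14 and -0.01 for Top2a. Kif20a, a kinesin of the dividing spindle, fell by 0.63 on the log2 scale in Trp53-KO (adjusted p = 9.85e-11, edgeR), and Ccnb1, the mitotic cyclin, by 0.53 (adjusted p = 2.41e-09, edgeR). Top2a thus showed smaller changes at high density than the list's median, while over all genes the median lay between -0.01 and 0.01.

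**Figure D3:**
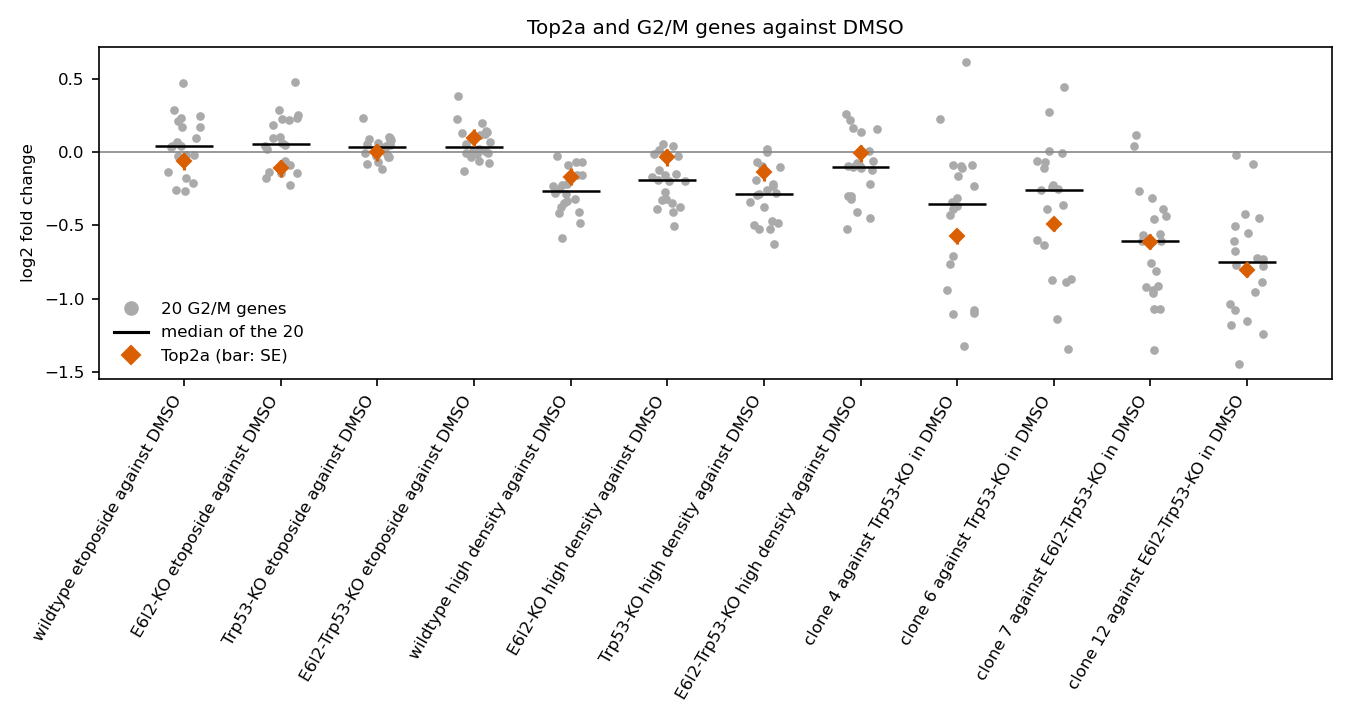
Log2 fold change (vertical axis) of Top2a (point with SE) beside the 20 G2 and M phase genes (small points) and their median (line) in 12 comparisons: etoposide and high density in 4 genotypes and the 4 transformed clones. In clones 7 and 12 Top2a lies close to the list's median of -0.61 and -0.75; in clones 4 and 6 the list spreads on both sides of 0.

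The genotypes were also compared in DMSO alone. Abcb1a was lower in all 3 edited genotypes than in wildtype, by 1.55-fold in E6l2-KO, 1.24-fold in Trp53-KO and 1.27-fold in E6l2-Trp53-KO. With Abcb1b added, the sum was 34.1 ± 2.3 CPM in wildtype, 29.7 ± 1.1 in E6l2-KO, 33.9 ± 3.6 in Trp53-KO and 30.7 ± 2.0 in E6l2-Trp53-KO. The summed Trp53-KO libraries (30.3 to 37.5 CPM) overlapped those of wildtype (32.3 to 36.7 CPM), and the sums were not tested. The topoisomerases, both phosphodiesterases, Abcb1b and Abcc1 passed no test between genotypes in this fit. With the length and GC correction the calls went from 1 higher and 4 lower to 7 higher and 2 lower, with Top1 called higher in E6l2-Trp53-KO than in wildtype (log2 0.20, adjusted p = 0.00942, edgeR). Wildtype DMSO had 7.19, 7.26 and 7.39 CPM of Abcb1a and E6l2-KO had 4.61, 4.94 and 4.76 CPM, which is a log2 difference of -0.63 ± 0.08 (adjusted p = 2.26e-06, edgeR). Trp53-KO had 5.99, 6.35 and 5.64 CPM (log2 -0.32 ± 0.08, adjusted p = 0.0115, edgeR) and E6l2-Trp53-KO 5.51, 6.36 and 5.70 CPM (log2 -0.35 ± 0.08, adjusted p = 0.00138, edgeR). Every library of the edited genotypes lay below every wildtype library. E6l2-Trp53-KO exceeded E6l2-KO by 0.28 ± 0.08 (adjusted p = 0.0192, edgeR). These comparisons share control libraries and are not independent.

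Of these, the Trp53-KO difference was lost without Trp53-KO replicate 3 (log2 -0.28, adjusted p = 0.0674, edgeR) or wildtype replicate 2 (-0.29, adjusted p = 0.0664, edgeR), and was -0.19 (adjusted p = 0.101, edgeR) with the length and GC correction. The difference between E6l2-Trp53-KO and E6l2-KO was lost without E6l2-KO replicate 1 (0.25, adjusted p = 0.0796, edgeR), without E6l2-Trp53-KO replicate 2 (0.24, adjusted p = 0.111, edgeR), and by DESeq2 (adjusted p = 0.0642). The ratio of Abcb1b to Abcb1a per kb went from 4.27 ± 0.38 in wildtype DMSO to 6.05 ± 0.065 in E6l2-KO, 5.39 ± 0.30 in Trp53-KO and 4.93 ± 0.28 in E6l2-Trp53-KO. Abcg2 was lower in E6l2-Trp53-KO than in wildtype, at 0.107, 0.0621 and 0.0585 CPM against 0.138, 0.242 and 0.373 CPM (log2 -1.75 ± 0.60, adjusted p = 0.0263, edgeR). That call was lost in 7 of 13 alternatives, among them those without wildtype replicate 2 (adjusted p = 0.0586, edgeR) or 3 (0.162) or E6l2-Trp53-KO replicate 2 (0.0906) or 3 (0.0973). Abcg2 passed the filter on low counts partly through wildtype DMSO, as said above, and with no filter the adjusted p was 0.0611 (edgeR).

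Of the 9 genes, 1 was called in E6l2-KO against wildtype (4.05% of all genes), 1 in Trp53-KO (9.03%) and 2 in E6l2-Trp53-KO (28.3%). Between E6l2-Trp53-KO and E6l2-KO 1 was called (16.8%). Between E6l2-Trp53-KO and Trp53-KO 0 were called by edgeR and by DESeq2, with 1 at an unadjusted p under 0.05, where 14.9% of all genes were called. Among the 10 other ABC exporters tested, 4 rose and 5 fell in E6l2-Trp53-KO against wildtype. Abcc4, a pump for cyclic nucleotides and nucleotide drugs, fell by 0.35 on the log2 scale there (adjusted p = 9.37e-07, edgeR).

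The transformed clones were compared with untransformed DMSO cells of their genotype. Abcb1a rose 6.88- to 8.35-fold and Abcb1b 3.93- to 4.52-fold over DMSO cells of the same genotype, in all 4 clones. Top1 rose 1.79- to 2.12-fold, while Top2a fell 1.41- to 1.74-fold and Top2b 1.33- to 1.4999-fold. Both phosphodiesterases fell, Tdp1 by 1.77- to 1.92-fold and Tdp2 by 1.62- to 2.61-fold. The test was edgeR's quasi-likelihood F test over the 12 clone libraries with 6 DMSO libraries and 14403 genes, and it found 30 of 32 values past an adjusted p of 0.05.

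That count has to be read against the table, since 80.4% of all genes were called in clone 4, 77.5% in clone 6, 79.5% in clone 7 and 79.7% in clone 12. Among the 9 genes the counts were 8, 7, 8 and 7 of the 8 tested, and Abcg2 did not pass the filter on low counts. The clones also carried a summed mast cell marker level far above that of the DMSO cells and far less Mpo and Cebpa, as given above. The 8 GMP markers, Kit and Ctsg among them, summed to 4342 to 4484 CPM in the clones against 4934 to 8607 CPM in untransformed groups. Kit, a receptor of progenitors and mast cells, was at 2404 to 2696 CPM in the clones and 303 to 447 CPM in untransformed groups, and Fcer1a, a mast cell receptor subunit, at 67.2 to 2460 CPM against 0 CPM. What part this difference in cell identity had in the changes below was not tested, and by design it cannot be told apart from transformation.

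Of the drug's targets, Top2a was at 642, 663 and 610.2 CPM in Trp53-KO DMSO, at 395, 431 and 420.3 CPM in clone 4 and at 475, 419 and 462 CPM in clone 6. It fell by 0.57 ± 0.05 and by 0.49 ± 0.05 in log2 units (adjusted p = 5.47e-10 and 8.07e-09, edgeR). In E6l2-Trp53-KO, DMSO cells had 616, 616 and 611 CPM, clone 7 had 389.7, 407 and 391 CPM and clone 12 had 346, 365 and 363 CPM. The decreases were 0.61 ± 0.05 and 0.80 ± 0.05 (adjusted p = 1.88e-10 and 1.44e-12, edgeR). No clone library reached the DMSO range.

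Top2b was at 186, 201 and 195 CPM in clone 4 and at 194, 176 and 193 CPM in clone 6, against 281, 301 and 266 CPM in Trp53-KO DMSO. It was at 225, 231 and 222 CPM in clone 7 and at 210.1, 227 and 221 CPM in clone 12, against 290.2, 309 and 315 CPM in E6l2-Trp53-KO DMSO. In clones 4, 6, 7 and 12 it fell by 0.50, 0.58, 0.41 and 0.50 on the log2 scale (SE 0.05; adjusted p from 8.37e-10 to 2.31e-07, edgeR). Top2a remained the more abundant isoform, at 3.23 ± 0.04 times the level of Top2b per kb in clone 12 and 4.77 ± 0.08 times in clone 6, against 4.00 ± 0.19 and 4.48 ± 0.10 times in the matching DMSO cells.

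Top1, which relaxes DNA by single-strand cuts and is not bound by etoposide, ran the other way. It was at 195, 212 and 216 CPM in clone 4 and 210.2, 197 and 205 CPM in clone 6, against 111, 122 and 112 CPM in Trp53-KO DMSO. It was at 250.03, 249.8 and 256 CPM in clone 7 and 236, 257 and 285 CPM in clone 12, against 113, 123 and 125 CPM in E6l2-Trp53-KO DMSO. The log2 changes were 0.90, 0.84, 1.09 and 1.08 (SE 0.06; adjusted p from 3.22e-14 to 4.41e-12, edgeR), and every clone library was above every DMSO library.

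Tdp2, the enzyme that frees etoposide-trapped topoisomerase II, was at 17.9, 19.8 and 18.2 CPM in clone 4 and 20.6, 17.5 and 19.5 CPM in clone 6. Trp53-KO DMSO had 49.1, 51.9 and 48.9 CPM, and the log2 changes were -1.38 ± 0.07 and -1.37 ± 0.07 (adjusted p = 2.14e-14 and 4.68e-14, edgeR). In the E6l2-Trp53-KO clones Tdp2 was at 31.2, 31.2 and 31.2 CPM in clone 7 and 27.1, 33.0 and 34.9 CPM in clone 12, against 48.9, 50.03 and 55.1 CPM. Those log2 changes were -0.70 ± 0.07 and -0.71 ± 0.06 (adjusted p = 2.38e-09 and 1.07e-09, edgeR). Tdp1 lay between 12.2 and 16.03 CPM in all 12 clone libraries and between 24.8 and 28.6 CPM in the 6 DMSO libraries. Its log2 changes were -0.84, -0.84, -0.83 and -0.94 in clones 4, 6, 7 and 12 (SE 0.06; adjusted p from 2.67e-12 to 5.68e-11, edgeR). The ratio of Tdp2 to Tdp1 per kb was 1.29 ± 0.06 in clone 4 and 1.30 ± 0.05 in clone 6 against 1.88 ± 0.10 in their DMSO cells, and 2.24 ± 0.12 in clone 7 and 2.42 ± 0.40 in clone 12 against 2.04 ± 0.10.

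Abcb1a was at 38.3, 41.1 and 40.8 CPM in clone 4 and 50.4, 48.6 and 50.8 CPM in clone 6, against 5.99, 6.35 and 5.64 CPM in Trp53-KO DMSO. The log2 changes were 2.78 ± 0.06 and 3.06 ± 0.06 (adjusted p = 1.01e-20 and 1.84e-21, edgeR). It was at 43.3, 48.9 and 47.8 CPM in clone 7 and 43.5, 46.4 and 46.9 CPM in clone 12, against 5.51, 6.36 and 5.70 CPM in E6l2-Trp53-KO DMSO. Those changes were 3.01 ± 0.06 and 2.93 ± 0.06 (adjusted p = 1.58e-21 and 1.99e-21, edgeR). The lowest clone library exceeded the highest untransformed library of any group, 12.6 CPM.

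Abcb1b was at 122, 123.04 and 122 CPM in clone 4, 133, 117 and 121 CPM in clone 6, 100.5, 105 and 99.9 CPM in clone 7 and 99.1, 100.4 and 99.6 CPM in clone 12. The highest untransformed library of any group had 38.4 CPM. The log2 changes were 2.18, 2.15, 2.05 and 1.98 (SE 0.06; adjusted p from 1.02e-18 to 5.55e-18, edgeR). Summed over both genes, so that the split of shared reads does not matter, P-glycoprotein transcripts were at 163 ± 1.7, 173 ± 9.2, 149 ± 5.1 and 145 ± 2.3 CPM in clones 4, 6, 7 and 12. Every untransformed group lay between 29.7 and 48.2 CPM. The ratio of Abcb1b to Abcb1a per kb was 3.55 ± 0.14, 2.87 ± 0.17, 2.54 ± 0.14 and 2.54 ± 0.09 in those clones, and each clone library (2.42 to 3.71) lay below each of its DMSO libraries (4.71 to 5.68).

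**Figure D4:**
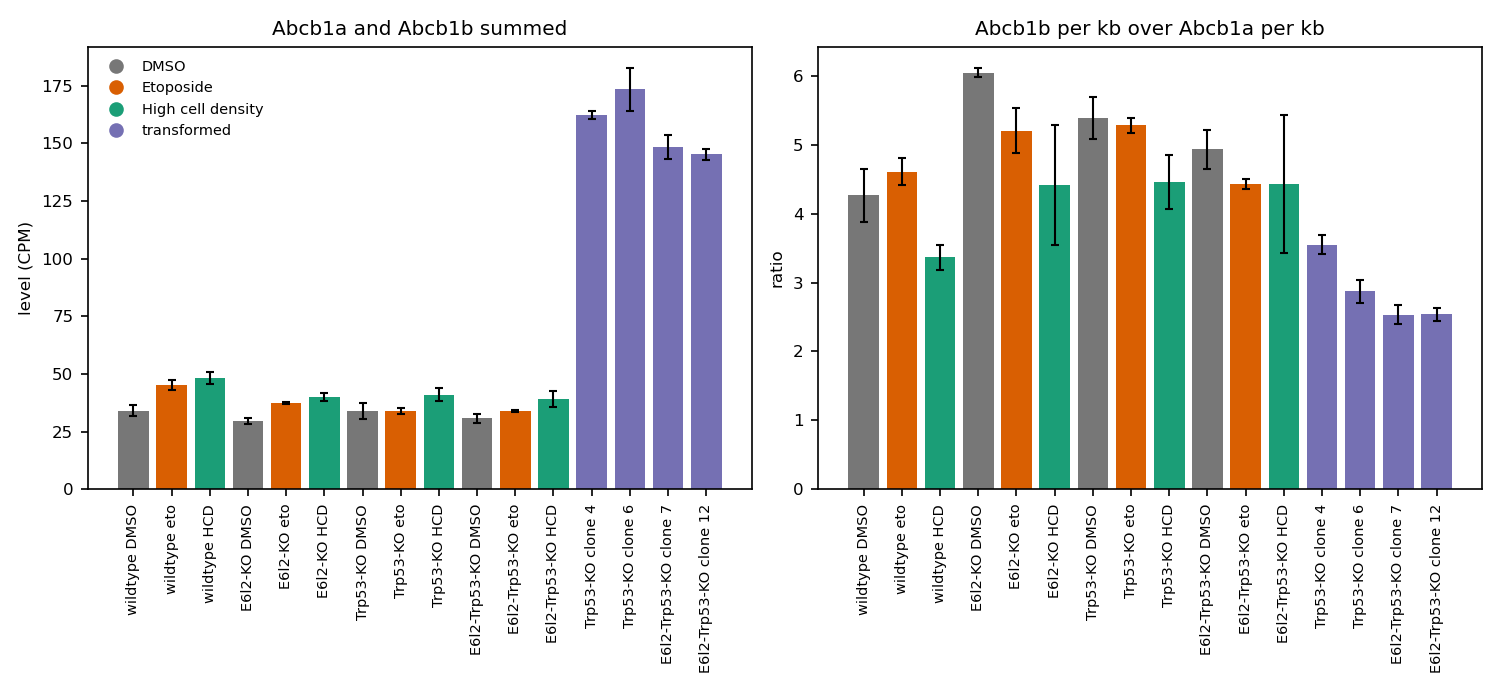
Summed level of Abcb1a and Abcb1b in CPM (left, bars from 0) and ratio of Abcb1b to Abcb1a per kb (right), as mean ± SD of 3 libraries in each of the 16 groups. The summed level is 145 to 173 CPM in the 4 clones and 29.7 to 48.2 CPM elsewhere, and the ratio is lower in each clone than in DMSO cells of its genotype.

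Abcc1 did not follow the P-glycoprotein genes. It was at 96.3, 93.5 and 101 CPM in clone 4 against 116, 107 and 114 CPM in DMSO and fell by 0.16 ± 0.04 in log2 units (adjusted p = 0.00113, edgeR). It was at 139.6, 137 and 142 CPM in clone 7 against 120.2, 126 and 120.1 CPM and rose by 0.21 ± 0.04 (adjusted p = 6.56e-05, edgeR). Neither pair of groups overlapped. Clone 6, at 112, 119 and 118 CPM, and clone 12, at 131, 131 and 132 CPM, did not pass the test (log2 0.06 and 0.08), and with the length and GC correction both turned to lower, at -0.10 and -0.12. Under that correction the clone 4 value was -0.45 and the clone 7 value 0.09. Abcg2 stayed at 0.0307 to 0.395 CPM in the clones.

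Other genes of the same processes moved in both directions. Of 6 other topoisomerase genes, 1 rose and 5 fell in clones 4 and 6, and 2 rose and 4 fell in clones 7 and 12. Top1mt, the mitochondrial enzyme, rose in clone 4 to 5.70 CPM from 0.36 CPM (log2 4.03 ± 0.20, adjusted p = 2.31e-14, edgeR). Top3b, which acts on DNA and RNA, fell in clone 7 by 1.49 in log2 units (adjusted p = 3.14e-19, edgeR) and Top3a in clone 4 by 1.203 (adjusted p = 4.25e-15, edgeR). Of 18 adduct and end processing genes, 3 rose and 10 fell in clone 4, 4 and 8 in clone 6, and 6 and 9 in each of clones 7 and 12. Genes of the MRN complex, which trims protein-blocked ends, are given at their largest called change over the clones. Mre11a fell by 1.00 in clone 6 (adjusted p = 3.98e-13, edgeR) and Rad50 by 0.94 in clone 4 (adjusted p = 7.98e-15, edgeR). Nbn rose by 1.08 in clone 7 (adjusted p = 9.41e-13, edgeR). These values come from different clones, so they do not show a split of the complex within 1 clone.

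Of 10 other ABC exporters, 5 rose and 4 fell in clone 4, 4 and 5 in clone 6, 5 and 5 in clone 7, and 5 and 4 in clone 12. Abcb4, the phospholipid transporter that neighbours Abcb1a, rose in clone 12 by 2.43 ± 0.12 (adjusted p = 1.79e-14, edgeR). Abcc2, a pump for conjugated drugs, fell in clone 6 by 5.17 in log2 units (adjusted p = 4.36e-14, edgeR), from 7.50 CPM to 0.21 CPM. The G2 and M phase genes fell in most cases, 14 of 20 in clones 4 and 6 and 18 of 20 in clones 7 and 12, with medians of -0.36, -0.26, -0.61 and -0.75 on the log2 scale. Top2a's own changes were -0.57, -0.49, -0.61 and -0.80. The median over all genes lay between 0.00 and 0.07, and the length and GC correction moved it by -0.25, -0.13, -0.11 and -0.16 in clones 4, 6, 7 and 12.

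Between clones of a genotype 4 of 16 values passed the test, 2 higher and 2 lower, and with the length and GC correction 12 of 16 did, 7 higher and 5 lower. For clone 6 against clone 4 the correction moved the median over all genes to log2 0.11. Clone 6 exceeded clone 4 in Abcb1a (log2 0.28 ± 0.05, adjusted p = 0.000189, edgeR) and Abcc1 (log2 0.22 ± 0.04, adjusted p = 0.000495, edgeR), for 2 of 8 tested against 24.0% of all genes. Clone 12 lay below clone 7 in Top2a (log2 -0.19 ± 0.05, adjusted p = 0.0127, edgeR) and Abcc1 (log2 -0.13 ± 0.04, adjusted p = 0.0362, edgeR), for 2 of 8 against 13.4%. Without the deep clone 12 replicate 3 both were lost (log2 -0.18, adjusted p = 0.0509, and -0.11, adjusted p = 0.177, edgeR). Top2a was also lost without clone 7 replicate 2 (adjusted p = 0.0586, edgeR), and Abcc1 without clone 12 replicate 2 (0.0734), clone 7 replicate 1 (0.102) or clone 7 replicate 3 (0.12).

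With each clone summed and counted as 1 replicate, the 2 E6l2-Trp53-KO clones were set against the 2 Trp53-KO clones, and 3 of 9 genes passed against 29.1% of 15865 genes. Tdp2 was higher by 0.77 ± 0.08 in log2 units (adjusted p = 0.00322, edgeR), a 1.71-fold difference. Top1 was higher by 0.33 ± 0.07 (adjusted p = 0.025, edgeR) and Abcb1b lower by 0.30 ± 0.06 (adjusted p = 0.0194, edgeR). With the length and GC correction 1 of the 9 was called, higher. Leaving out a clone leaves 1 sample in its genotype, whose spread is then assumed to equal that of the other genotype, so those fits say little about stability. In them Tdp2 kept an adjusted p of at most 0.0251, and Top1 ran from 0.0649 to 0.163 and Abcb1b from 0.066 to 0.177 (edgeR). Of 18 end processing genes 3 rose and 2 fell in the same comparison, with Aptx, which removes AMP from stalled ligation ends, higher by 0.76 (adjusted p = 0.0067, edgeR).

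Genes with the pattern most like each member were found by Pearson's r over the 16 group means of log2 CPM, which is a description over groups that differ above all between clones and untransformed cells. For Top2a these were Zwilch, Smc4 and Espl1, all at r = 0.99, and at 0.79, 0.81 and 0.76 over the 12 untransformed groups. For Top1 the nearest were Pank1, Impact and Hs2st1 (r = 0.99), and for Top2b Lsm3 (0.99), Usp7 and Eny2 (0.98). Tdp1 was nearest to Lars, Dtwd1 and Rnaseh2a, all at 0.99. Tdp2 was nearest to Jarid2, Ypel1 and Arhgap4, all at 0.99, but over untransformed groups Jarid2 was at 0.60, Ypel1 at 0.48 and Arhgap4 at 0.80. Rab8b and Lcp2 were among the genes nearest to Abcb1a, and Znrf2 and Rab20 among those nearest to Abcb1b, all at 0.99, with 0.82 to 0.86 over untransformed groups. Abcc1 had no close match, its nearest being Esd at 0.91.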

How the data were processed

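RNA was isolated with a PicoPure kit and made into libraries with an Illumina TruSeq kit, per the labels' protocols; a NovaSeq sequenced them and the SUSHI pipeline processed them, per the series text. Neither labels nor headers name the aligner, counting program, strand setting or build. The authors deposited expected counts per gene (58.1% of values above 0 lay within 0.01 of a whole number), which were rounded to whole numbers. Antisense or overlapping genes could not be separated without a strand setting.

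The genes, lists and tests were chosen with earlier results of these data known. Gene IDs matched GENCODE M21 (GRCm38) for 99.6% of 25528 genes. Levels are CPM with TMM factors over all 48 libraries, given as mean ± SD (n = 3) or per kb of the longest coding transcript. Tests used edgeR 4.0.16 (R 4.3.3): TMM, filterByExpr, quasi-likelihood F test, Benjamini-Hochberg threshold 0.05. The 36 untransformed libraries entered 1 fit (14059 genes), the 12 clone libraries with 6 DMSO libraries another (14403 genes), and the 4 clone sums the last (15865 genes). Alternatives were DESeq2 1.42.0, RLE factors, no filter, a replicate block, other sample sets, a length and GC offset, and leaving out each library; leaving out the 3 libraries over 40 M counts was added after seeing the data. On simulated counts for wildtype etoposide against DMSO (13990 genes) the test recovered 91.4% of 1.5-fold changes, and for clone 4 (14116 genes) 93.1%. Of the calls 2% and 5.4% were false. Far fewer genes were changed there than were called in the data, and no change under 1.5-fold was simulated. Recovery of the smaller changes in the text was therefore not tested. Named list genes were at most 3 per direction and family of comparisons, the called genes with the largest changes and at least 5 CPM; the neighbours of the Abcb1 genes were chosen after their values were seen. A floor of 3 counts for genes at 0 covers counting error only, since PCR copies were not told apart. No pair of libraries in a group agreed within counting noise (smallest chi-square divided by its degrees of freedom, 2.4). E6l2-Trp53-KO Etoposide replicate 3 was at 46.6 and 48.45 against replicates 1 and 2, which were at 4.45 against each other. Clone 12 replicate 3 was at 73.51 and 61.81, with 9.31 between its replicates 1 and 2. Clone 4 replicate 3, also deep, was at 13.94 and 5.34. Why these libraries stood apart was not tested. No batch is named in the labels. Some genes with a pattern like that of a pump gene are not reported here.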

Additional observations from a re-analysis of the deposited data

Results flagged for a closer look

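The difference in etoposide response between genotypes passed its own interaction test for 4 genes. Abcb1b responded less in Trp53-KO than in wildtype cells, by -0.36 on the log2 scale, as the levels above show. Abcc1 responded less in E6l2-Trp53-KO than in E6l2-KO cells, by -0.31, and that call was lost in 0 of 20 alternatives.

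Top2a responded more in E6l2-Trp53-KO than in E6l2-KO cells, by 0.21 ± 0.08 (adjusted p = 0.049, edgeR). The levels were 616, 616 and 611 CPM in DMSO and 628, 589 and 716 CPM in etoposide in E6l2-Trp53-KO, and 605, 559 and 612 CPM and 567, 537 and 576 CPM in E6l2-KO. The 716 CPM belonged to the deep replicate 3, and without it the difference was 0.06 (adjusted p = 0.575, edgeR). The call was lost in 19 of 20 alternatives, among them every alternative that left out 1 library, where adjusted p ran up to 0.575, and the length and GC correction turned it to -0.14.

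Abcg2 responded more in E6l2-Trp53-KO than in E6l2-KO cells, by 2.91 ± 0.91 (adjusted p = 0.0143, edgeR). The levels were 0.107, 0.0621 and 0.0585 CPM in DMSO and 0.141, 0.265 and 0.281 CPM in etoposide in E6l2-Trp53-KO. In E6l2-KO they were 0.227, 0.133 and 0.146 CPM in DMSO and 0, 0.0909 and 0.112 CPM in etoposide. No library held more than 19 Abcg2 counts, and a count of 0 allows up to 3.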

How the results depend on the processing

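Of 73 called results for the 9 genes, 50 were called in every alternative and 23 were lost in at least 1. All calls for Abcb1a, Abcb1b, Top1, Top2a, Top2b, Tdp1 and Tdp2 between a clone and its DMSO cells were among those kept. Comparing each gene's value with each alternative, 3640 stayed on the same side of the threshold, 125 were weaker, 74 stronger and 18 reversed. Those 3640 include results called in neither setting, in which a change of sign was not counted as reversed. Where a cause is not given, the cause was not tested.

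All 18 reversals came with the length and GC offset. In etoposide against DMSO it gave Top2a 0.25, Top1 0.28 and Tdp2 0.17 in wildtype, Top1 0.20 in E6l2-KO and Top2b -0.18 in E6l2-Trp53-KO. At high density in wildtype it gave Top2a 0.0084, Top2b 0.056 and Top1 0.020. Between genotypes it gave Top1 0.20 for E6l2-Trp53-KO against wildtype, interactions of -0.26 for Top2a and -0.33 for Top1 in Trp53-KO against wildtype, and of -0.14 for Top2a and -0.23 for Tdp2 in E6l2-Trp53-KO against E6l2-KO. For Abcc1 it gave -0.10 in clone 6 and -0.12 in clone 12. For clone 6 against clone 4 it gave Top2b 0.17, Top1 0.12 and Abcb1b 0.14. The offset moved the median over all genes by 0.11 in wildtype etoposide, -0.13 and -0.14 in those interactions, and 0.12 between clones 6 and 4.

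Counts of calls moved as follows. The shares of all genes called that are given above belong to the fits before these changes. In etoposide against DMSO 7 became 14 with the offset (12 higher, 2 lower), and 6 higher and 2 lower with only the groups compared. At high density 20 became 13 with no filter (10 higher, 3 lower). For genotypes in DMSO 5 became 2 with no filter, 9 with the offset (7 higher, 2 lower, against 1 and 4) and 3 with only the groups compared, and ran from 3 (without E6l2-Trp53-KO DMSO replicate 2 or wildtype DMSO replicate 2) to 8 (without wildtype DMSO replicate 1) with 1 library left out. For the etoposide response between genotypes 4 became 12 with the offset (1 higher, 11 lower, against 2 and 2), 2 with only the groups compared and 2 by DESeq2, and ran from 2 (without wildtype Etoposide replicate 1) to 6 with 1 library left out. Between clones of a genotype 4 became 12 with the offset, 2 with all 48 libraries in 1 fit and 2 without the libraries over 40 M counts, and ran from 2 (without clone 12 replicate 3) to 4 with 1 library left out. For transformed genotypes 3 became 1 with the offset, 5 without those libraries, 7 with 12 libraries as replicates and 5 by DESeq2, and ran from 1 (without clone 12, 7 or 4) to 2 with 1 clone left out, where the lone clone is assumed to vary like the other genotype's. Same-numbered libraries did not deviate together (r from -0.19 to 0.17), so they share only a number. A replicate block gave 7, 21, 5, 4, 0, 30 and 4 calls in the comparisons in the order of the text, against 7, 20, 5, 4, 0, 30 and 4, and no pairing was assumed.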

Other observations

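The genes around the Abcb1 pair on chromosome 5 were looked at because both copies were higher in every clone; this window was chosen after those values were seen. Of 19 other genes within 1 Mb, 10 passed the filter on low counts. In clones 4, 6, 7 and 12, 5, 4, 6 and 6 of the 10 rose and 1, 1, 2 and 2 fell (edgeR, adjusted p under 0.05), so that 6, 5, 8 and 8 were called where 80.4%, 77.5%, 79.5% and 79.7% of all genes were. Their median log2 changes were 0.17, 0.10, 0.54 and 0.30. Crot, an enzyme that hands fatty acyl groups from peroxisomes to carnitine, rose by 1.23, 1.14, 1.07 and 1.13. Abcb4 rose by 0.88, 1.40, 2.39 and 2.43. Tmem243, in the same window, fell by 2.25, 2.79, 1.93 and 1.62. Neighbours moved in both directions, and Abcb4 rose more than Abcb1b (2.05 and 1.98) and less than Abcb1a (3.01 and 2.93) in clones 7 and 12; these differences between genes were not tested.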
